A study of Mus musculus with 16 samples.

Results

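The change in testis RNA between postnatal day 14 (P14) and postnatal day 16 (P16) was measured in control mice of a study of the RNA helicase YTHDC2. The 4 control libraries, 2 at each stage, were chosen by their labels and are 4 of the 16 libraries of the study, which also holds Cre control and Ythdc2 conditional knockout (cKO) testes at the same stages. Per the labels, mice of all 3 kinds were given tamoxifen (10 mg/ml) on both P12 and P13. The P14 testes were therefore collected 1 day and the P16 testes 3 days after the last dose, and age cannot be told apart from time since tamoxifen. The Cre driver and the alleles of the control and Cre control mice are not described further in the labels, where the columns of the control libraries carry the name WT. The labels also do not say whether replicates came from separate animals, so p-values measure only the spread between these libraries.

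Total RNA of whole testis was depleted of ribosomal RNA and sequenced. The 4 control libraries share a depletion kit (Ribo-Zero components) and a sequencing run, and held 22220565 to 27531529 reads on genes. Levels are given as CPM, the reads of a gene scaled to a common total of reads on genes, for P14 replicates 1 and 2 and then P16 replicates 1 and 2. They are not corrected for gene length, so levels are compared between stages and not between genes. A gene is called higher or lower at P16 when its adjusted p in limma was under 0.05. One library stood apart in 1 group of genes: in P14 replicate 2, genes of the interferon response were higher than in the other 3 control libraries (Gbp2, an interferon-induced GTPase, was at 5.96, 45.4, 6.33 and 5.996 CPM). The values of the macrophage list are therefore also given without that library.

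In the mouse, the first germ cells to enter meiosis do so together soon after birth, so the testis of a juvenile holds no germ cell older than the front of this first wave. In meiotic prophase the chromosomes pair through the synaptonemal complex, recombine, and, in the pachytene stage, silence the unpaired X and Y chromosomes in the sex body. Pachytene spermatocytes also begin to transcribe many genes used only later, in spermatids and sperm.

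Between P14 and P16, control testis gained RNA of the pachytene programme and of future sperm parts, while many genes of somatic cells and of the X chromosome were lower, by smaller amounts. Of 15305 genes tested, 2873 were called higher at P16, which is 18.8% of genes, and 1700 lower, which is 11.1%. The 2 directions differed in size. The median log2 change was 0.47 among genes called higher and -0.30 among genes called lower. Of the genes called higher, 817 rose at least 2-fold, 282 at least 4-fold and 83 at least 8-fold. Of the genes called lower, 53 fell at least 2-fold and 0 fell at least 4-fold. A change of the share of a cell type in the tissue and a change of the RNA in each cell cannot be told apart in whole testis. Quantile normalization, which forces the libraries to the same distribution, called 2340 genes higher and 2840 lower. The counts were 1693 and 556 without P16 replicate 1, and 1710 and 693 without P16 replicate 2.

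**Figure D1:**
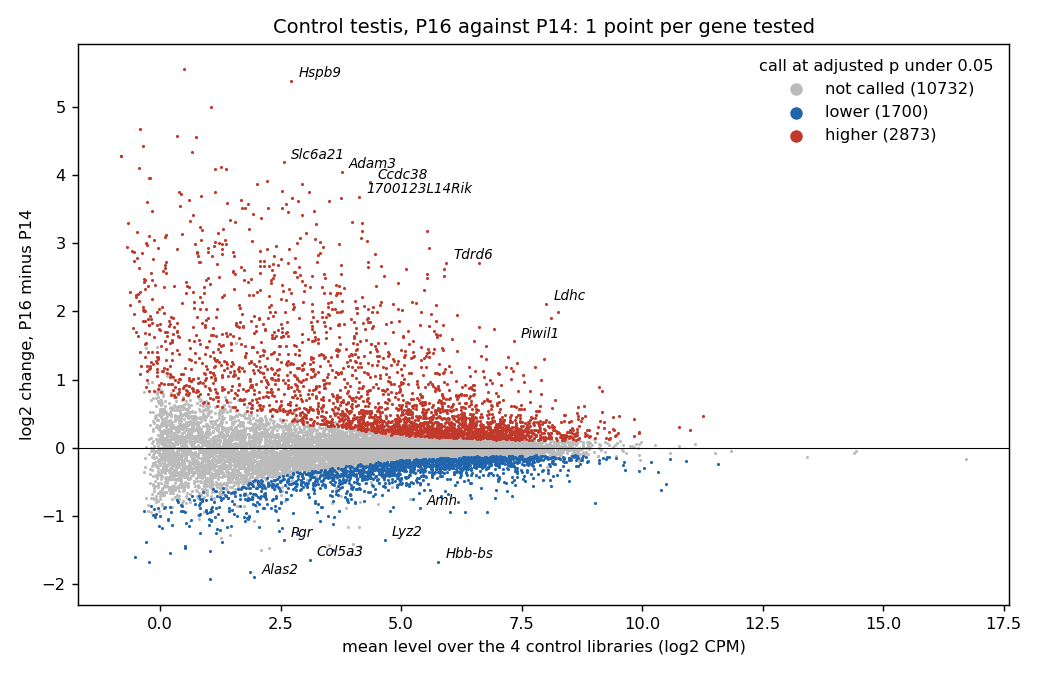
Log2 change from P14 to P16 (vertical axis) against the mean level over the 4 control libraries (log2 CPM, horizontal axis), with 1 point per gene. The 2873 genes called higher (red) reach log2 changes above 5, while the 1700 genes called lower (blue) stay above -2.

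Many of the largest rises came in genes with low levels at P14. Among the 282 genes that rose at least 4-fold, 145 were under 1 CPM at P14 and 34 were at 5 CPM or more. A gene under 1 CPM in both P14 libraries entered the test through its P16 level alone, so that only a rise could be found. Hspb9, Slc6a21, Abca14 and Tcp10b, given below, are of this kind. The largest rise among protein-coding genes at 5 CPM or more was that of Hspb9, which codes for a small heat shock protein of the testis. Its level was 0.222 and 0.314 CPM at P14 and 15.1 and 10.7 CPM at P16, a log2 change of 5.38 (SE 0.25, adjusted p = 3.7e-07). Both P16 values lay above both P14 values, as in all 2873 genes called higher. In all 1700 genes called lower the stages did not overlap either. For a called gene this therefore adds nothing to the call, and its share over all genes tested is not given here.

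Slc6a21, a member of the family of sodium-dependent solute carriers, went from 0.667 and 0.493 to 12.6 and 9.87 CPM (log2 change 4.19, SE 0.22, adjusted p = 7.5e-07). The lipid transporter gene Abca14 went from 0.400 and 0.717 to 9.14 and 8.26 CPM. Mroh2a, which codes for a protein of HEAT repeats, went from 1.78 and 2.11 to 25.4 and 24.3 CPM. The rises of these 3 genes, and that of Hspb9, are of genes with no annotated overlap on either strand.

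The other members of the 10 largest rises share sequence or position with other genes. Adam3 (1.33 and 1.70 to 28.6 and 22.9 CPM), which codes for a sperm surface protein needed for passage into the oviduct, overlaps Gm26208 and Gm45528 on the other strand. Ccdc38 (1.96 and 3.27 to 41.1 and 35.2 CPM) overlaps Snrpf, Cmtm2b (0.801 and 1.61 to 16.1 and 15.7 CPM) overlaps Gm45878, and 1700123L14Rik (2.45 and 2.55 to 33.8 and 31.2 CPM) overlaps Fam19a1. Tcp10b and Tcp10c belong to a family of near-identical genes on chromosome 17, so their reads may be split among copies. Tcp10b went from 0.623 and 0.896 to 11.7 and 9.80 CPM and Tcp10c from 0.578 and 1.48 to 12.3 and 12.1 CPM. For these genes the strand setting of the counting is not stated and the source of the reads is less certain.

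Few genes of spermatogonia were called in either direction. Of 17 tested genes of undifferentiated spermatogonia, 1 rose and 1 fell, with a median log2 change of -0.14, against a median of -0.01 over all genes. Gfra1, the receptor for GDNF on stem and progenitor cells, was at 13.8, 16.3, 14.6 and 16.3 CPM, and Zbtb16, a transcription factor of the same cells, at 58.7, 62.2, 53.6 and 58.8 CPM. The groups overlapped for both, and neither passed the test (adjusted p = 0.82 and 0.22). Id4, a helix-loop-helix factor of the stem cell pool that later spermatocytes also express, was the member that rose, from 28.7 and 32.2 to 42.3 and 45.2 CPM (log2 change 0.53, SE 0.07, adjusted p = 0.00045).

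Some genes of differentiating spermatogonia fell by small amounts. Of 15 tested, 6 fell and 1 rose, with a median log2 change of -0.11. Kit, the receptor that marks these cells, fell from 139.7 and 144 to 118 and 119 CPM (log2 change -0.27, SE 0.04, adjusted p = 0.00094). The cyclin gene Ccnd2 fell from 93.5 and 88.5 to 66.4 and 76.4 CPM and the DNA methyltransferase gene Dnmt3b from 51.2 and 49.96 to 41.0 and 38.9 CPM. Dmrtb1, which codes for a factor that governs the step from mitosis to meiosis, rose from 41.7 and 46.3 to 65.2 and 59.2 CPM. Stra8, the retinoic acid target that starts meiosis, was at 116, 108, 98.7 and 113 CPM, and its groups overlapped (adjusted p = 0.38). Of 25 tested genes of the mitotic cycle and S phase, 5 rose and 4 fell, with a median of -0.06. Over all genes tested 18.8% were higher and 11.1% lower. The proliferation marker Mki67 was at 195, 221, 194 and 204 CPM (adjusted p = 0.44).

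Many genes of early meiotic prophase rose by small amounts, and several of the first steps of recombination were not called. Of 40 tested genes, 21 rose and 1 fell, with a median log2 change of 0.17. Syce1, a central element protein of the synaptonemal complex, rose from 72.4 and 78.3 to 113 and 112 CPM (log2 change 0.57, SE 0.05, adjusted p = 1.9e-05). Sycp2, of the axis, rose from 341 and 346 to 494 and 451 CPM, and its partner Sycp3 from 419 and 443 to 511 and 467 CPM. Hormad1, an axis protein that leaves chromosomes once they have paired, rose from 257 and 257 to 306 and 308 CPM. In all 4 genes both P16 libraries lay above both P14 libraries, as in every gene called higher.

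Terb2, which ties telomeres to the nuclear envelope, rose from 11.3 and 11.6 to 16.1 and 16.5 CPM. Hsf2bp, a partner of BRCA2 in meiotic repair, rose from 43.7 and 40.5 to 59.5 and 57.3 CPM. Spo11, which makes the double-strand breaks, rose from 19.2 and 22.2 to 30.05 and 24.9 CPM (log2 change 0.41, SE 0.10, adjusted p = 0.015). Prdm9, which places the breaks, was at 36.1, 35.9, 33.3 and 34.3 CPM, and the recombinase gene Dmc1 at 82.6, 80.3, 85.9 and 85.3 CPM. Rec8, a meiotic cohesin, was at 29.4, 30.02, 26.7 and 34.4 CPM. None of the last 3 passed the test (adjusted p = 0.28, 0.25 and 0.87).

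Ythdc2 itself, which codes for a helicase that binds RNA and is needed for germ cells to progress in meiosis, was at 83.7 and 93.5 CPM at P14 and 103 and 101 CPM at P16. The change was small (log2 change 0.20, SE 0.06, adjusted p = 0.022), with both P16 values above both P14 values, as in every gene called higher. Its binding partner Meioc rose from 351 and 378 to 446 and 438 CPM (log2 change 0.28, SE 0.04, adjusted p = 0.0011).

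Genes of crossover formation had a higher median change. Of 15 tested, 10 rose and 0 fell, with a median log2 change of 0.33. Mlh3, of the nuclease that resolves crossovers, went from 51.9 and 55.4 to 70.2 and 74.5 CPM (log2 change 0.43, SE 0.06, adjusted p = 0.00031), and Cntd1, a cyclin-like protein required at crossover sites that overlaps Becn1 and Coa3, from 88.3 and 93.1 to 129.5 and 133 CPM. Rnf212, a ligase that selects crossover sites, went from 4.85 and 4.93 to 7.29 and 7.02 CPM. The helicase-like gene Mcmdc2 went from 8.05 and 9.77 to 16.2 and 13.8 CPM, and 1700102P08Rik, named Redic1 in newer annotations, from 61.2 and 67.1 to 109 and 108 CPM. In each of these genes both P16 libraries lay above both P14 libraries, as in every gene called higher.

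Of 18 tested genes of the sex body and its checkpoint kinases, 5 rose and 0 fell, and the median of 0.02 was close to that of all genes. The median changed sign with the processing (from -0.04 to 0.05). The 5 were the kinase gene Atr (769.6 and 801 to 1056 and 1037 CPM), its activator Topbp1, the adaptor gene Mdc1 (215 and 229.6 to 292 and 297 CPM), Rad9b of the checkpoint clamp (32.8 and 35.4 to 48.5 and 45.1 CPM) and H2afx, the histone that ATR marks in the sex body (837 and 957 to 1023 and 1076 CPM). Of 24 genes of the meiotic cell cycle, 10 rose and 3 fell. Among the 24, 1, Ccna1, entered the test through its P16 level alone, so that only a rise could be found in it. Ccna1, the cyclin of late spermatocytes, rose from 0.712 and 0.448 to 3.33 and 3.44 CPM (log2 change 2.50, SE 0.27, adjusted p = 1.0e-04), and Pkmyt1, an inhibitor of the kinase CDK1, from 9.87 and 10.7 to 22.3 and 22.9 CPM.

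**Figure D2:**
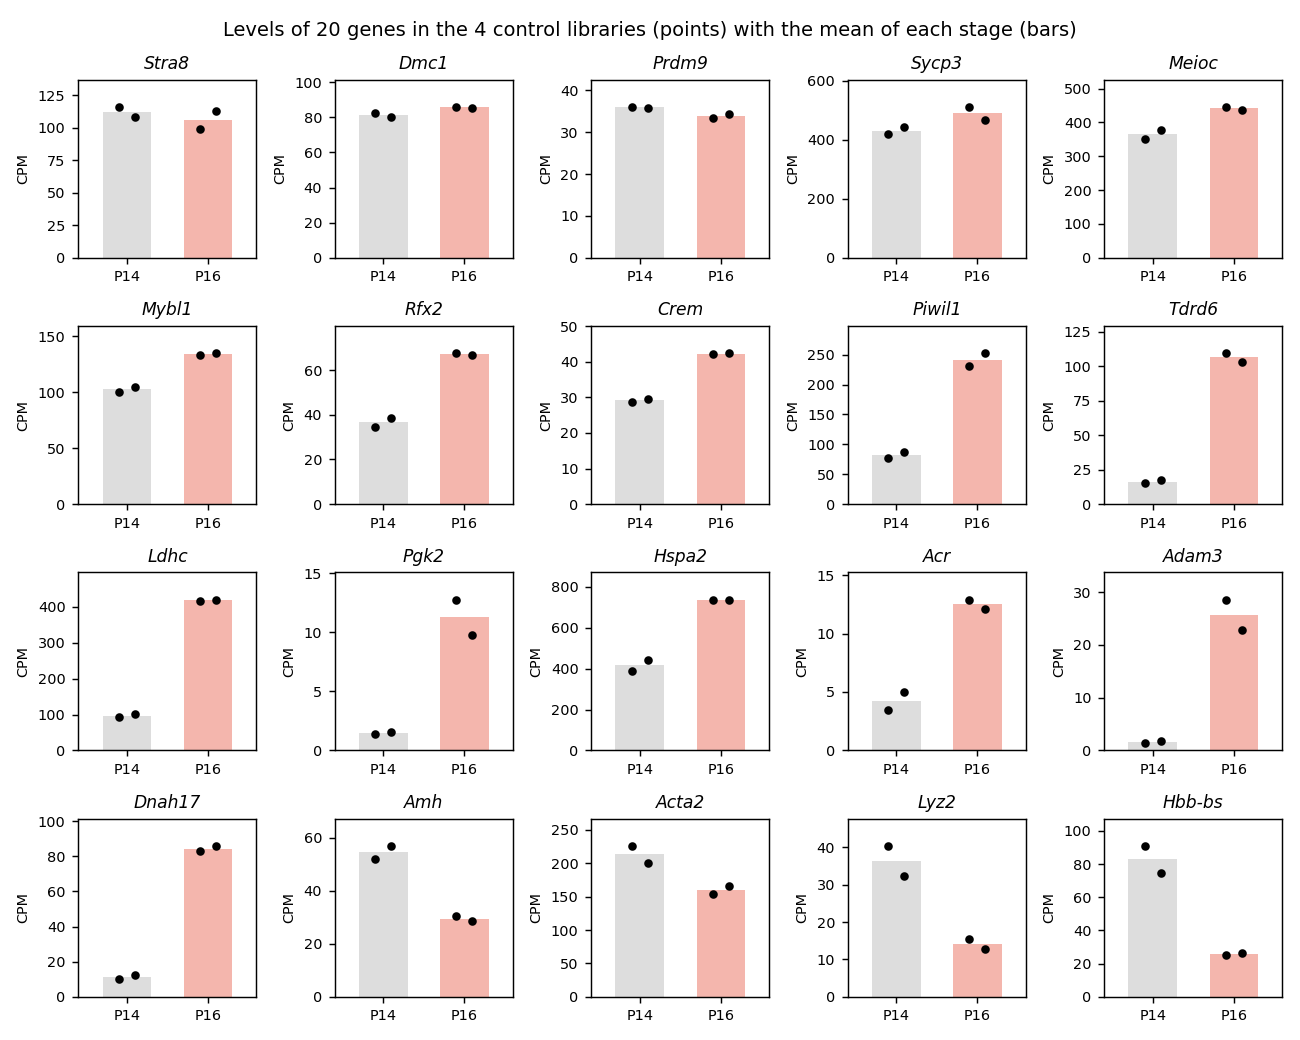
Levels in CPM of 20 genes in the 4 control libraries (points), with the mean of each stage as bars that start at 0. Stra8, Dmc1 and Prdm9 are level across stages, Piwil1 to Dnah17 rise, and Amh, Acta2, Lyz2 and Hbb-bs are lower at P16.

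Most transcription factors of the pachytene programme rose. Of 21 tested transcription factors of spermatocytes, 13 rose and 1, Taf7l on the X chromosome, fell, with a median log2 change of 0.39. Mybl1, which codes for A-MYB, the activator of pachytene genes, rose from 100.1 and 105 to 133 and 135 CPM (log2 change 0.39, SE 0.04, adjusted p = 0.00012). Rfx2, which codes for an activator of genes of cilia and spermatids, rose from 34.5 and 38.6 to 67.5 and 66.9 CPM (log2 change 0.88, SE 0.06, adjusted p = 5.2e-06). Rfx4, of the same family, rose from 6.80 and 7.44 to 16.7 and 19.8 CPM.

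Tcfl5, a helix-loop-helix factor of pachytene cells, rose from 80.8 and 85.4 to 135 and 139 CPM (log2 change 0.72, SE 0.05, adjusted p = 2.4e-06). Crem, whose product activates spermatid genes through cAMP response elements, rose from 28.8 and 29.6 to 42.0 and 42.4 CPM. Sox30, an activator of spermatid genes, rose from 18.2 and 19.98 to 28.4 and 27.1 CPM. Hsf5 (63.6 and 62.5 to 115 and 124 CPM) and Kctd19 (80.5 and 88.5 to 178 and 179 CPM), both needed for spermatocytes to complete prophase, rose as well. Rfx1, Rfx3, Hsf2, Taf4b, Btbd18, Ovol1 and Foxj1 were not called.

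The promoters of the genes that rose were searched for short sequences that these factors are known to bind. RefSeq promoter windows on GRCm38.p6, from 250 bases before to 50 bases after the start, were found by symbol for 11296 of the genes tested (14367 windows, with more than 1 window for genes with several starts). CAACTGNC (MYB type) was found on either strand in 3.12% of these windows. The share was 5.16% for genes called higher, 9.31% for those that rose at least 2-fold and 15.5% for those that rose at least 4-fold (34 of 220 windows), against 3.15% for genes called lower and 2.55% for genes not called. The RFX motif GTTGCCA was found in 4.04% of windows, in 7.05% for genes called higher, in 12.3% and 11.8% for those that rose at least 2-fold and 4-fold, and in 2.55% for genes called lower. Both motifs were thus more frequent the larger the rise up to 2-fold, and the MYB type further so beyond 4-fold.

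The STRA8 type CNCCTCAG also had a higher share up to 2-fold, by a smaller step: 8.26% for genes called lower, 9.06% for those not called, 10.2% for those called higher, 10.8% at 2-fold or more and 7.73% at 4-fold or more. The E2F type TTCCCGC was in 7.55%, 8.10% and 8.83% of the windows of genes called lower, not called and called higher, and in 5.76% and 3.18% at 2-fold and 4-fold. The cAMP response element TGACGTCA was in 2.26%, 3.07% and 2.87% for the first 3 sets, and in 1.62% and 0.909% at 2-fold and 4-fold. In all genes tested these motifs were in 9.19%, 8.17% and 2.94% of windows. Over all 32851 windows of the table, the shares were 3.56% for the MYB type, 4.38% for the RFX motif, 1.79% for the cAMP response element, 7.94% for the STRA8 type and 4.60% for the E2F type. Base composition moved with the size of the rise: the median share of G and C was 60.7% over the windows of all genes tested and 52% for genes that rose at least 4-fold. Its part in these shares was not tested. The MYB type and RFX motifs overlapped in 15 of the 33 windows that held both. These are matches of letters and not measured binding.

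**Figure D3:**
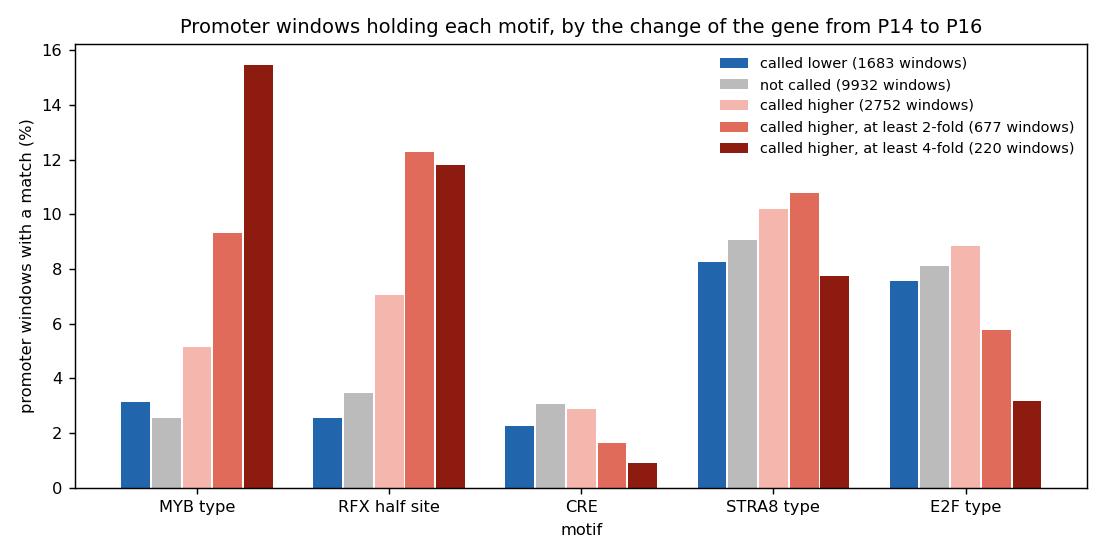
Share of promoter windows (%, vertical axis) with a match to each of 5 motifs, for genes called lower, not called and called higher, the last also at 2-fold and 4-fold thresholds. The MYB type bars climb from 2.55% for genes not called to 15.5% for genes that rose at least 4-fold, while the cAMP response element and E2F type bars are lowest at 4-fold (0.909% and 3.18%).

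Among windows with a MYB type match, the match began within 100 bases before the start in 58.8% for genes that rose at least 4-fold (20 of 34), in 44.4% for all genes called higher, in 41.5% for genes called lower (22 of 53) and in 26.9% for genes not called. The 250 bases before the start are printed for 4 named genes that rose and hold the MYB type and 2 that rose and hold the RFX motif, to show where the match lies. They are Mroh2a (chr1:88226770-88227019, plus strand, match beginning 41 bases before the start), Piwil1 (chr5:128735996-128736245, plus strand, 75 bases), Adam1b (chr5:121503436-121503685, minus strand, 41 bases), Rfx4 (chr10:84837898-84838147, plus strand, 42 bases, at 1 of its 2 starts), Actl7b (chr4:56741426-56741675, minus strand, 17 bases) and Ybx2 (chr11:69936078-69936327, plus strand, 153 bases, at 1 of its 2 starts), all on RefSeq's GRCm38.p6 and 5′ to 3′ on the strand of the gene. Capitals mark the match, which reads as the reverse complement in Mroh2a, Piwil1, Rfx4 and Ybx2. Cntd1 and Tcfl5 also hold the MYB type, as do 2 named genes that fell, Hbb-bt and Cnn1. The RFX motif was also in the window of a named gene that fell, Hbb-bs.
Mroh2a: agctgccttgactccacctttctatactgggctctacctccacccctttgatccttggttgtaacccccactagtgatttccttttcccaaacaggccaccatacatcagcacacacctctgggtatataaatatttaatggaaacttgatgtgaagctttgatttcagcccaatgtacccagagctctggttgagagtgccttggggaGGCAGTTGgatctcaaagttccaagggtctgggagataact
Piwil1: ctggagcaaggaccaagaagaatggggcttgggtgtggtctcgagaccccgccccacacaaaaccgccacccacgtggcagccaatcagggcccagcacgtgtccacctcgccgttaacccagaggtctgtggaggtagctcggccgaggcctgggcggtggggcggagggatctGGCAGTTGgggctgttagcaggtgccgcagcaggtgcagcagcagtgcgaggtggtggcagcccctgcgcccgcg
Adam1b: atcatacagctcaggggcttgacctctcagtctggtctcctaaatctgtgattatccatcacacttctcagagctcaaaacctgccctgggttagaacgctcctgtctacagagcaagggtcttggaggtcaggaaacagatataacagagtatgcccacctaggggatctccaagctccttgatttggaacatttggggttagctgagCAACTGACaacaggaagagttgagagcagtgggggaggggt
Rfx4: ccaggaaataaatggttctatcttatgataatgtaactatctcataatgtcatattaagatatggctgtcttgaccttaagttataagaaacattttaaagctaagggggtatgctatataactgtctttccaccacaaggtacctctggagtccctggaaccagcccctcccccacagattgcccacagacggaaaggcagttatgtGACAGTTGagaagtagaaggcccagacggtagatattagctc
Actl7b: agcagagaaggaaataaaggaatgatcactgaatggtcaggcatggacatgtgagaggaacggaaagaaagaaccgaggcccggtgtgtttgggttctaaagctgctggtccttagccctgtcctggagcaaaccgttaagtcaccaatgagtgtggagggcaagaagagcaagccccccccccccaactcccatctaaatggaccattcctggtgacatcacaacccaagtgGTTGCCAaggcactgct
Ybx2: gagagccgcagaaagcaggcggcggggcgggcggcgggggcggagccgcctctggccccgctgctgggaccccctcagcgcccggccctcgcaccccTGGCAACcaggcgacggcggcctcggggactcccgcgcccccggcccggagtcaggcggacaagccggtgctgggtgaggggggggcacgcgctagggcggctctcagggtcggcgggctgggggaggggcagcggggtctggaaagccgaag

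Most genes of the piRNA pathway, which silences transposons and in pachytene cells makes piRNAs from long precursor transcripts, rose. Of 24 tested, 19 rose and 0 fell, with a median log2 change of 0.42. Tdrd6, a Tudor scaffold of the chromatoid body, rose from 15.2 and 17.3 to 109.5 and 103 CPM (log2 change 2.71, SE 0.07, adjusted p = 3.6e-08). Piwil1, which codes for MIWI, the PIWI protein of pachytene piRNAs, rose from 76.6 and 87.1 to 230.5 and 252 CPM (log2 change 1.56, SE 0.06, adjusted p = 2.1e-07). Pld6, of the mitochondrial nuclease that makes piRNA ends, rose from 18.1 and 18.6 to 36.3 and 35.2 CPM, and the helicase gene Ddx25 from 75.7 and 84.8 to 142 and 140.3 CPM. Piwil4, of the PIWI protein used before birth, had a log2 change of -0.16 and was not called.

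RNA-binding proteins that store or modify messages for later use rose in a part of the list. Of 19 tested, 11 rose and 1 fell. Pabpc6, a testis poly(A)-binding protein, rose from 13.6 and 16.1 to 66.8 and 62.3 CPM (log2 change 2.12, SE 0.09, adjusted p = 1.9e-07). Papolb, a testis poly(A) polymerase, rose from 14.1 and 15.1 to 37.8 and 39.3 CPM, Ybx2, which holds messages untranslated, from 80.8 and 88.9 to 210.5 and 216 CPM, and Ybx3 from 98.2 and 103 to 235 and 239.9 CPM. Boll rose from 93.5 and 95.1 to 143 and 144 CPM, while Dazl, its relative of earlier germ cells, was at 903, 943, 965 and 948 CPM (adjusted p = 0.36).

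Enzymes of energy metabolism that exist as separate testis genes rose where they could be tested. Of 16 fixed, 15 were found and 12 tested, and all 12 that were tested rose, with a median log2 change of 1.17. Ldhc, the lactate dehydrogenase of sperm, rose from 91.8 and 102 to 415 and 419.6 CPM (log2 change 2.11, SE 0.05, adjusted p = 2.2e-08). Pgk2, a phosphoglycerate kinase that stands in for the X-linked Pgk1, rose from 1.38 and 1.52 to 12.8 and 9.76 CPM (log2 change 2.91, SE 0.18, adjusted p = 2.0e-06). The glycerol kinase genes Gk2 (10.6 and 13.4 to 50.04 and 48.1 CPM) and Gykl1 (4.31 and 4.26 to 17.5 and 18.5 CPM) each rose about 4-fold. The 3 that did not reach the level tested, Gapdhs, Aldoart1 and Aldoart2, had at most 13 reads in a library.

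The X chromosome moved the other way. Of 614 X-linked genes tested, 2 were called higher (0.326%) and 181 lower (29.5%), with a median log2 change of -0.18, and 91.0% had a change below 0. On the autosomes 19.6% were higher and 10.3% lower, with a median of 0.00. No autosome had under 14.2% higher or over 13.4% lower. The X chromosome took 2.72% and 2.61% of reads on genes at P14 and 2.37% and 2.32% at P16. Of 10 Y-linked genes tested, 0 were higher and 1 lower.

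**Figure D4:**
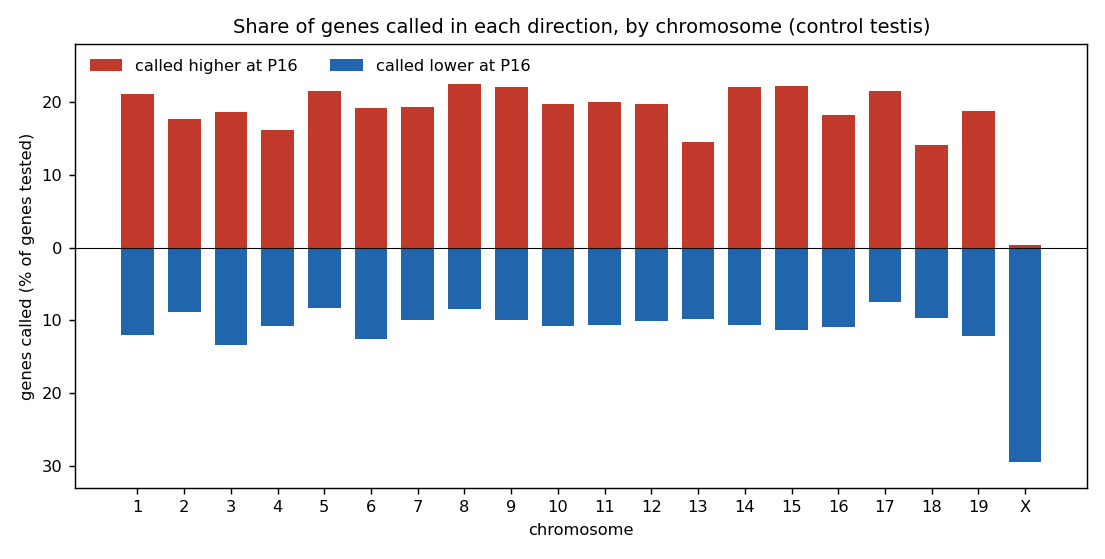
Share of genes tested on each chromosome that were called higher (red, upward) or lower (blue, downward) at P16, in percent. The X chromosome has 0.326% higher and 29.5% lower, while each autosome has 14.2% or more higher.

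Among X-linked genes with at least 5 CPM at P14, the 4 largest falls include genes of blood cells. Alas2, which overlaps Apex2 and codes for an enzyme of haem synthesis in red cells, fell from 6.49 and 5.73 to 1.56 and 1.65 CPM, the kinase gene Nrk from 113 and 98.9 to 51.0 and 59.3 CPM, Cybb, of the phagocyte oxidase, from 6.40 and 7.53 to 3.61 and 3.69 CPM, and the amino acid transporter gene Slc38a5 from 29.8 and 23.3 to 14.9 and 17.5 CPM. The part of somatic cells in the X-linked change was not tested. Chosen after their values were seen, the 2 X-linked genes called higher were Rhox10, a homeobox gene of germ cells (1.73 and 2.11 to 2.84 and 3.00 CPM, log2 change 0.60, adjusted p = 0.048), and Tsga8, a gene of spermatids that overlaps Dmd (0.623 and 0.717 to 1.76 and 2.01 CPM, log2 change 1.44, adjusted p = 0.0024). Rhox10 went the other way, without a call, in Cre control (log2 change -0.54) and cKO testis (-0.75). Tsga8 rose in both (1.89 and 1.29).

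Pairs of X-linked genes and autosomal copies used in the testis show both directions. Of 12 X-linked parent genes, 5 fell and 0 rose, with a median of -0.17. That median was close to the -0.18 of all X-linked genes tested, of which 29.5% were lower and 0.326% higher. Of 6 testis copies 5 rose and 0 fell, with a median of 0.46. Rpl10, a protein of the large ribosomal subunit, fell from 172 and 159.8 to 129.8 and 136 CPM, and its copy Rpl10l rose from 71.8 and 85.9 to 114 and 117 CPM. The centrin gene Cetn2 fell from 27.0 and 27.0 to 22.6 and 23.4 CPM, and its copy Cetn1 rose from 8.81 and 9.14 to 37.6 and 39.4 CPM. Pdha1, of pyruvate dehydrogenase, fell from 44.7 and 39.1 to 33.7 and 35.1 CPM. Pgk1 was at 31.9, 28.5, 27.2 and 27.0 CPM and was not called (adjusted p = 0.15). Reads of near-identical copies may be split between them.

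Genes of the flagellum rose in nearly every case tested. Of 48 found, 41 were tested, of which 40 rose and 0 fell, with a median log2 change of 1.79. Of the 41, 5 entered the test through their P16 level (Tekt2, Tekt3, Tekt5, Dnaic2 and Rsph6a), so the count describes the genes tested and not the list. The 7 left out had at most 24 reads in a library and include the late genes Akap4, Odf1 and Catsper1. Dnah17, a dynein heavy chain of the outer arm, rose from 10.1 and 12.2 to 82.9 and 85.9 CPM (log2 change 2.93, SE 0.09, adjusted p = 6.0e-08); it overlaps Gm11738 and Pgs1. Rsph6a, of the radial spoke, rose from 0.889 and 0.896 to 11.4 and 9.87 CPM, and Tekt3, a filament protein inside the microtubule, from 0.311 and 0.717 to 6.89 and 5.01 CPM. Spag6l, of the central pair, rose from 12.9 and 12.5 to 52.9 and 50.6 CPM. Akap3, a scaffold of the fibrous sheath, was the tested member not called, with a log2 change of 0.11.

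Genes of the acrosome, the secretory cap of the sperm head, rose in 9 of the 10 cases tested. Of 22, 10 were tested, with a median log2 change of 2.01. Acr, which codes for the protease acrosin, rose from 3.42 and 4.97 to 12.9 and 12.1 CPM (log2 change 1.59, SE 0.17, adjusted p = 9.6e-05), and Spata16, needed for the acrosome to form, from 5.03 and 5.38 to 35.9 and 33.6 CPM. Dpy19l2, which anchors the acrosome to the nucleus, rose from 6.36 and 6.41 to 28.2 and 31.4 CPM and Zpbp2, of the acrosomal matrix, from 3.20 and 3.99 to 18.4 and 16.3 CPM. Spaca1 was at 5.25, 4.03, 5.05 and 5.78 CPM and was not called (adjusted p = 0.34). The other 12 had at most 26 reads in a library, and 5 of them, among them Spam1 and Spaca4, had 0 reads in all 4 libraries.

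Of 18 genes of sperm surface proteins, 10 were tested, of which 9 rose and 1, Ace, fell. Adam18 entered the test through its P16 level, and the count describes the genes tested and not the list. The 8 left out had at most 28 reads in a library, and 4 of them had 0 reads in all 4 libraries. Adam21, among those 8, had 7, 5, 2 and 3 reads. Adam2, the fertilin beta subunit, rose from 27.3 and 31.2 to 116 and 111 CPM (log2 change 1.95, SE 0.07, adjusted p = 8.6e-08), Adam32 from 6.05 and 7.03 to 40.5 and 42.3 CPM, and Adam18 from 0.445 and 0.582 to 6.53 and 5.996 CPM. The testis chaperone Hspa2, which spermatocytes need to leave prophase, rose from 387 and 444 to 735 and 738 CPM (log2 change 0.83, SE 0.06, adjusted p = 4.5e-06), and Clgn, which folds ADAM proteins in the endoplasmic reticulum, from 116 and 124 to 239 and 262 CPM. Cct6b rose from 5.78 and 7.35 to 28.2 and 26.1 CPM. Of 11 chaperones, 8 were tested, of which 6 rose and 0 fell. Hspa1l entered the test through its P16 level, and the 3 left out had at most 3 reads in a library.

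Genes of spermatids were near or at 0. Of 22 genes of round and elongating spermatids, 20 did not reach the level tested, and 8 of these had 0 reads in all 4 libraries, among them the protamine genes Prm1 and Prm2. A count of 0 allows up to 3 reads, which is 0.109 to 0.135 CPM in these libraries, for counting error only. Tnp1, which codes for a transition protein, had 3, 5, 6 and 4 reads. The 2 others entered the test through their P16 level alone, so that only a rise could be found: Spata18, of mitochondrial quality control, was at 1.07, 0.941, 2.96 and 3.51 CPM, and Tsga8 at the levels given above. The testis linker histone gene Hist1h1t, made from pachytene on, rose from 119 and 135 to 238 and 258 CPM (log2 change 0.96, SE 0.06, adjusted p = 2.7e-06), while the spermatid histone genes H1fnt and Hils1 had 0 reads.

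Markers of Sertoli cells, the somatic cells that nurse germ cells within the tubule, were lower by small amounts. All 30 were tested, of which 18 fell and 0 rose, with a median log2 change of -0.20. Amh, the hormone of immature Sertoli cells, fell from 51.9 and 56.9 to 30.4 and 28.4 CPM (log2 change -0.89, SE 0.07, adjusted p = 7.0e-06), and Rhox5, an X-linked homeobox gene, from 3.56 and 2.78 to 1.12 and 1.499 CPM. Gdnf, the growth factor for stem cells, fell from 8.98 and 10.3 to 6.49 and 6.62 CPM, and Trf, which codes for transferrin, from 27.5 and 22.3 to 17.2 and 16.7 CPM. The lineage factor genes Sox9 (85.7 and 89.6 to 80.6 and 71.4 CPM, log2 change -0.21, adjusted p = 0.028) and Wt1 (161 and 165 to 141 and 144 CPM, log2 change -0.20, adjusted p = 0.0047) fell by less. The follicle-stimulating hormone receptor gene Fshr was at 25.9, 25.2, 25.2 and 24.2 CPM and was not called (adjusted p = 0.65).

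Peritubular and smooth muscle genes fell in 8 of 10, with a median of -0.37. Acta2, of smooth muscle actin, fell from 226 and 200.5 to 153 and 166 CPM (log2 change -0.41, SE 0.06, adjusted p = 0.00069) and Myh11, its myosin, from 154 and 144 to 104 and 113 CPM. Of 15 tested Leydig cell genes 6 fell and 1 rose. The one that rose was Cyp17a1, an enzyme of androgen synthesis, from 1.73 and 1.08 to 3.13 and 5.12 CPM (log2 change 1.52, SE 0.29, adjusted p = 0.0036). Igf1 fell from 161 and 128 to 62.4 and 89.3 CPM and Hsd17b3, of testosterone synthesis, from 6.49 and 7.12 to 3.05 and 4.20 CPM. Star, which brings cholesterol into mitochondria, was at 9.70, 5.91, 9.01 and 9.83 CPM and was not called (adjusted p = 0.27). Of 10 endothelial genes 4 fell, among them Kdr, the receptor for VEGF, from 25.8 and 23.3 to 16.1 and 19.7 CPM, and Pecam1 was at 31.7, 28.8, 31.2 and 31.9 CPM (adjusted p = 0.53).

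Of the 28 lists, those of macrophages and red blood cells had the lowest medians. Of 15 macrophage genes 10 fell and 0 rose, with a median of -0.75, and their summed level was 248 and 269 CPM at P14 and 162 and 169 CPM at P16. Lyz2, which codes for lysozyme, fell from 40.3 and 32.2 to 15.4 and 12.9 CPM (log2 change -1.35, SE 0.12, adjusted p = 2.1e-05), and Adgre1, the F4/80 antigen, from 12.3 and 11.5 to 7.17 and 6.32 CPM. Without P14 replicate 2, the library with high interferon-type genes, 9 fell and 2 rose, and the median was -0.53. The log2 change without that library was -1.52 for Lyz2 and -0.86 for Adgre1. The 5 red cell genes tested all fell, with a median of -1.82 and summed levels of 128, 105, 34.6 and 38.7 CPM. Hbb-bs, of beta globin, fell from 90.9 and 74.6 to 25.2 and 26.5 CPM (log2 change -1.67, SE 0.09, adjusted p = 6.3e-07). The globin genes Hba-a1, Hba-a2, Hbb-bs and Hbb-bt are near-identical pairs, so their reads may be split. Blood in the tissue was not measured in any other way, and its part was not tested.

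The other members of the 10 largest falls came from several groups. Col5a3, which overlaps Gm26274, (15.8 and 10.3 to 4.69 and 3.51 CPM) and Col23a1 (11.6 and 8.69 to 3.97 and 4.39 CPM) code for collagens. Pgr, the progesterone receptor gene, fell from 9.07 and 7.93 to 3.09 and 3.51 CPM (log2 change -1.36, SE 0.15, adjusted p = 0.00011). Inhba, which codes for the activin A subunit, fell from 9.12 and 6.41 to 2.88 and 3.66 CPM, and Laptm5, a lysosomal protein of blood cells, from 8.63 and 7.30 to 3.73 and 3.29 CPM. Of 13 tested genes of retinoic acid signalling 4 fell and 1 rose. Cyp26b1, which breaks down retinoic acid, fell from 144 and 159 to 91.4 and 107 CPM (log2 change -0.62, SE 0.07, adjusted p = 0.00015), and Aldh1a2, which makes it, rose from 118 and 123 to 131 and 137 CPM. Of 16 genes of cholesterol synthesis 4 rose and 1 fell, and of 19 genes of the p53 response 1, Mdm2, rose and 3 fell. The medians of these 2 lists were -0.01 and -0.05, close to the -0.01 of all genes tested, of which 18.8% were higher and 11.1% lower. Cdkn1a, the p53 target of cell cycle arrest, was at 3.87, 2.37, 2.00 and 2.34 CPM (adjusted p = 0.18).

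**Figure D5:**
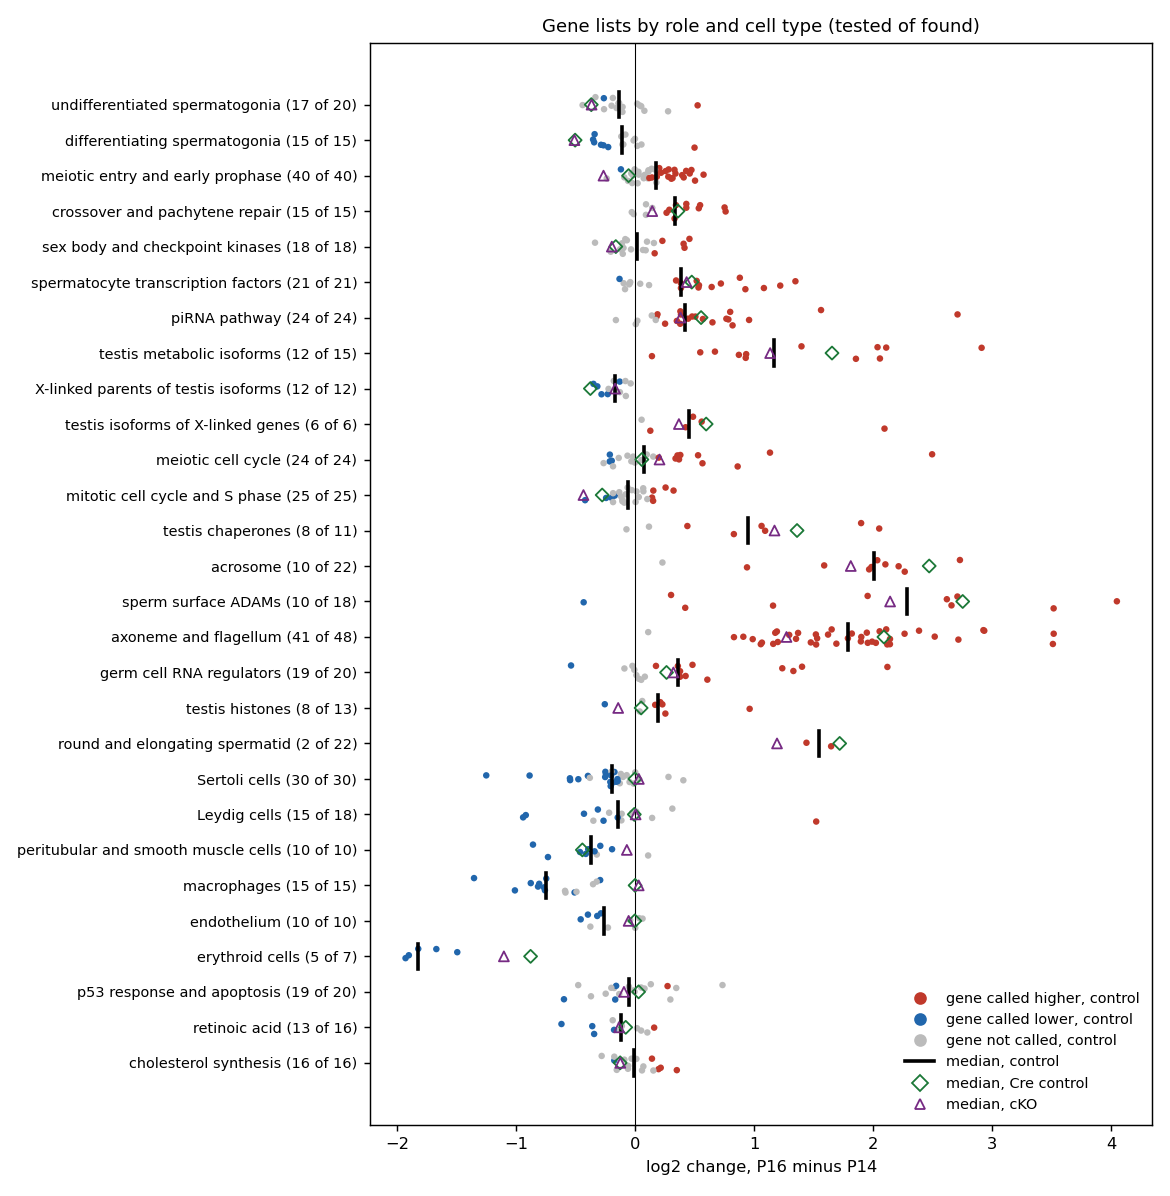
Log2 change from P14 to P16 of each tested member (points) of the 28 gene lists in control testis, with the list median (black bar) and the medians in Cre control (diamonds) and cKO (triangles). Flagellum, ADAM and acrosome genes lie to the right in all 3 kinds of testis, while the medians of Sertoli, macrophage and endothelial genes are below 0 in control testis and from -0.05 to 0.03 in the others.

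The same stage change was then measured in Cre control testis, which was made with the NEBNext depletion kit, in 2 runs, and shares no library with the control comparison. Both P14 libraries and P16 replicate 1 came from 1 run and P16 replicates 2 to 4 from the other. Stage and run can therefore not be fully told apart in Cre control testis. Of 16699 genes tested, 1537 were called higher (9.2%) and 629 lower (3.77%). With run as a covariate, 1514 were called higher and 328 lower. Of the 2831 genes called higher in control testis that were also tested here, 93.8% had a change of the same sign, and 1386 were called higher, which is 48.2% of the control list and 90.2% of the Cre control list. Of the genes called lower in control testis, 82.5% had the same sign, and 211 were called lower, which is 12.4% of the control list and 33.5% of the Cre control list. Over all genes tested in both, 72.0% had the same sign. Without P14 replicate 1, 558 and 54 genes were called in Cre control testis. Without P16 replicate 3 the counts were 940 and 136, and without P16 replicate 2 there were 215 called lower.

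The difference between the stage changes of control and Cre control testis was tested by an interaction term in limma. Of 17128 genes, 0 were called higher and 0 lower (0% each), with 1252 at an unadjusted p under 0.05. The median SE was 0.22, against 0.08 for the stage change in control testis. The absence of calls does not show that the changes were equal. edgeR's quasi-likelihood test gave 0 higher and 0 lower, with 1198 at an unadjusted p under 0.05. Side by side, flagellum genes had medians of 1.79 in control and 2.09 in Cre control testis, piRNA genes 0.42 and 0.55, and X-linked genes -0.18 and -0.32. The medians of somatic lists were -0.20 and -0.00 for Sertoli cells, -0.75 and -0.00 for macrophages, -0.26 and -0.00 for endothelium and -0.37 and -0.44 for peritubular cells. The Cre control testes differ from the controls in kit and run as well as genotype, and these cannot be told apart.

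The cKO libraries of the same kit and run as the controls, 2 at each stage, allowed the same test within a kit. The stage change was more positive in control than in cKO testis in 893 of 15681 genes (5.69%) and more negative in 608 (3.88%). Of the named genes called different, the largest difference was that of Prdm9, with a log2 change of -0.09 in control and -1.54 in cKO testis (difference 1.43, SE 0.09, adjusted p = 0.00019). H2afx had 0.23 and -1.11 (difference 1.32, SE 0.14, adjusted p = 0.0014), and Stra8 -0.08 and -1.10 (difference 1.00, SE 0.10, adjusted p = 0.00092). Flagellum genes had medians of 1.79 in control and 1.27 in cKO testis, and piRNA genes 0.42 and 0.38. None of the 41 flagellum genes and none of the 24 piRNA genes tested was called different, which does not show that their changes were equal. In other lists more were called different: 20 of 40 genes of early prophase, 14 of 25 of the mitotic cycle, 8 of 15 of differentiating spermatogonia and 10 of 30 of Sertoli cells.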

How the data were processed

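Per the labels' protocols, total RNA was depleted of ribosomal RNA and made into directional libraries. The submitters' processing notes name Trim Galore, STAR, HTSeq, DESeq2 and the build GRCm39 (mm39), without roles. The authors deposited normalized signal values, which are gene counts divided by a factor per library. Whole reads were recovered from 100% of these values (tolerance 0.01), and 4 summary rows that name no gene were dropped. Reads on genes were 38.6% to 42.3% of all reads in the control libraries. Gene names were matched to GENCODE IDs of GRCm38.p6 for 52133 of 55414 IDs.

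Recovered reads were scaled by TMM and tested as log2 CPM (prior count 1) with limma 3.58.1 with trend (R 4.3.3), on genes with at least 1 CPM in at least 2 libraries, with Benjamini-Hochberg adjustment over all genes tested. edgeR 4.0.16 (2893 higher, 1747 lower) and DESeq2 1.42.0 were alternatives, and the steps were tested on simulated data. Comparisons with cKO testis use the 4 cKO libraries of the controls' kit, and those with Cre control testis use 6 libraries.

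Members and gene lists were chosen with earlier results of these data known. Genes are named by rule: Ythdc2, the 10 largest rises and falls among called protein-coding genes with at least 5 CPM at the higher stage, preset key genes, and up to 4 called members of each list or of X. Promoters come from RefSeq (GRCm38.p6).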

Additional observations from a re-analysis of the deposited data

Results flagged for a closer look

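For 22 named genes the change from P14 to P16 differed between control testis and the cKO testis of the same kit by the interaction test in limma (adjusted p under 0.05). The values that follow are the log2 change in control minus that in cKO. The same test between control and Cre control testis called 0 of all 17128 genes. That none of the 22 was called there therefore does not set them apart.

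Among these named genes, which are given because they passed that test, those of germ cells, Meioc apart, were more positive in control testis. The difference was 1.43 for Prdm9, 1.32 for H2afx, 1.00 for Stra8, 0.76 for Dmc1, 0.57 for Ccne2, 0.55 for Hsf2bp and 0.40 for Crabp1. It was 0.72 for Ythdc2, the targeted gene, whose log2 change was 0.20 in control and -0.54 in cKO testis. Meioc went the other way, with a difference of -0.67. Aldh1a2, which makes retinoic acid, differed by 0.45 and Cyp26b1, which breaks it down, by -0.58.

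Among the same named genes, those of somatic and blood cells were more negative in control testis. The differences were -1.19 for Lyz2, -1.15 for Cybb, -1.01 for Laptm5, -0.96 for Adgre1 and -0.81 for C1qa, genes of macrophages and other white blood cells. P14 replicate 2, the control library with high interferon-type genes, enters each of them, and its part was not tested. The Sertoli cell genes Gdnf and Fshr differed by -1.03 and -0.43, the muscle gene Myh11 by -0.43, the alpha globin gene Hba-a2 by -1.38, the X-linked kinase gene Nrk by -0.58 and the X-linked ribosomal gene Rps4x by -0.28.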

How the results depend on the processing

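No called named gene changed direction under those of the 16 alternatives of the control comparison that gave it a value. Of 147 called named genes, 127 had a value under all 16, and 80 of these kept their call in each. The counts of genes moved more. Genes higher and lower numbered 1753 and 370 with no filter on low counts and 1823 and 616 without the trend in limma, while 2340 were higher and 2840 lower after quantile normalization and 903 with DESeq2. Leaving out 1 library at a time gave 1693 to 3281 higher and 556 to 2426 lower, where the lone library of a stage is assumed to vary like the other stage. In Cre control testis, 328 genes were lower with run as a covariate, and leaving out 1 library gave 558 to 1792 higher and 54 to 917 lower. The X chromosome median was -0.24 after quantile normalization and -0.21 to -0.17 without 1 library. Of 28 list medians 3 changed sign, all near 0. That of the sex body list was -0.0386 after quantile normalization, -0.0351 with a filter of 5 CPM and -0.00411 to 0.0455 without 1 library. That of the mitotic list was -0.0797 to 0.0110 without 1 library, and that of cholesterol synthesis 0.00990 with the 5 CPM filter and -0.101 to 0.0805 without 1 library. No spermatid gene passed the 5 CPM filter. The cause of these changes was not tested. Nothing in the labels pairs libraries by number, and same-numbered control libraries did not deviate together (correlation -0.048). With the replicate block, 3031 genes were higher and 2066 lower in control testis, and 247 were lower in Cre control testis. With 2 libraries a stage, small changes rest on a spread that limma pools over genes.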

Other observations

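Families put together after the values were seen showed further groups. The 26 Cfap genes tested, of cilia and flagella, and the 7 tested genes of the CatSper calcium channel rose, with median log2 changes of 1.63 and 1.79. A gene could enter the test through its P16 level, and genes that stayed low were not tested, among them Catsper1 (0 reads in each library), Catsper3 (4, 4, 4 and 5 reads) and Catsper4 (0, 0, 0 and 1 read). Catsperb went from 1.56 and 1.52 to 13.5 and 13.2 CPM. Of 14 genes of intraflagellar transport 13 rose, by a median of 0.42, and Ift140 more than the median (98.3 and 104 to 217 and 224 CPM). Of 867 long noncoding RNAs tested, 27.0% were higher and 1.85% lower, against 18.6% and 12.1% of protein-coding genes. An RNA under 1 CPM in both P14 libraries entered through its P16 level alone, so that only a rise could be found. Gm12462 (0.400 and 0.582 to 7.57 and 7.64 CPM) and 1700051A21Rik (0.489 and 0.403 to 6.01 and 5.96 CPM) are of this kind. The part of such RNAs in the contrast was not tested. Rbakdn, an intergenic RNA, rose from 3.78 and 4.70 to 34.5 and 35.0 CPM. Psma8, which codes for the proteasome subunit of spermatocytes, rose from 90.1 and 96.1 to 169 and 185 CPM. Of 49 proteasome genes 9 rose and 2 fell, with a median of 0.02. Over all genes tested 18.8% were higher and 11.1% lower, so the proteasome genes as a family did not stand apart. Among 77 genes of the cytosolic ribosome, the 2 that rose were the testis copies Rpl10l and Rpl39l (54.7 and 58.5 to 82.6 and 86.1 CPM), and 12 fell.

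Of 40 collagen genes 23 fell and 2 rose, with a median of -0.38. Col1a1, of the main fibrillar collagen, fell from 649 and 664 to 357 and 396 CPM, and Col2a1, of cartilage collagen, rose from 1.73 and 2.91 to 5.97 and 4.79 CPM. Of 17 imprinted genes tested 8 fell and 0 rose. Dlk1, a membrane ligand of fetal and progenitor cells, fell from 32.8 and 38.4 to 18.1 and 19.2 CPM, and Peg3 from 148 and 164 to 114 and 126 CPM. Of 14 genes of the mitochondrial genome 7 fell, with medians of -0.26 in control, -0.57 in Cre control and 0.21 in cKO testis.

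Control P14 replicate 2 stood apart for genes of the interferon response. On a list of 38 such genes, written after the values were seen, it was the highest of the 4 control libraries for 37 and at least 4 times P14 replicate 1 for 15. Both counts follow in part from how the list was picked, and their shares over all genes tested are not given here. The median ratio of P14 replicate 2 to P14 replicate 1 was 3.26 on the list and 1.00 over all genes tested. Iigp1, an interferon-induced GTPase, was at 3.07, 57.9, 5.45 and 4.39 CPM, Igtp at 4.27, 32.4, 4.77 and 4.02 CPM, and Tap1, of antigen presentation, at 7.12, 37.9, 7.21 and 7.39 CPM. With all 4 libraries, limma called 0 of the 38 higher and 2 lower at P16. The median log2 change on the list was -0.58 with all 4 libraries, 0.11 without P14 replicate 2 and -1.33 without P14 replicate 1. The list was picked with these values known, so this shift follows from the choice and is not a separate result.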
